A study of Rattus norvegicus with 15 samples.

Results

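The tumour necrosis factor (TNF) ligand and receptor superfamilies were examined in rat lung RNA. Their 39 genes, 17 ligands and 22 receptors, were taken by symbol from the 22250 genes of the deposited table: every symbol that opens with Tnfsf or Tnfrsf and a digit, together with Tnf, Lta, Ltb, Ltbr, Fas, Faslg, Cd40, Cd40lg, Cd27, Cd70 and Ngfr. A gene was tested where it reached at least 1 FPKM (fragments per kilobase of transcript and per library size, a level scaled to transcript length) in 5 or more of the 15 libraries, and 29 of the 39 did, 9 ligands and 20 receptors.

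TNF family ligands are mostly trimeric proteins anchored in the cell membrane, and several are also cut free to act at a distance. Their receptors either recruit TRAF adaptors, which lead to NF-kB and cell activation or survival, or carry a death domain, which can lead to caspase activation or necroptosis. In the lung, lipopolysaccharide (LPS) makes macrophages release TNF within hours, and the lymphotoxin, BAFF and CD40 branches are known for organising lymphoid tissue and helping B cells.

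All rats were labelled wild type. Normal control rats, rats with acute lung injury after tracheal LPS (ALI) and rats given tracheal LPS with Sang Ju Yin, a herbal formula, by the intragastric route (SJY) gave 5 libraries each. The labels give no strain, age, dose or time, name no group that received the vehicle alone, and do not say whether a library is 1 animal or a pool, so p-values measure only the spread between these libraries. Library numbers are those of the labels: control 4, 5, 6, 7 and 8, ALI 1 to 5, and SJY 1, 3, 4, 5 and 6, and values below follow that order.

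Whole counts could be recovered from the FPKM values up to a factor common to all libraries, with totals of 11534513 to 13479999 per library. The summed level of 10 alveolar type II markers was 6148 FPKM in ALI 1 and 14077 to 25378 in the other libraries. The 12 neutrophil markers summed to 203.8 to 299 FPKM in controls, 2336 to 23529 in ALI and 8567 to 15060 in SJY. ALI 1 stood apart: 37.7% of its summed FPKM came from 13 mitochondrial genes, and it had the lowest alveolar type I marker sum (699 FPKM). The mitochondrial share was 5.19 to 17.1% in the other libraries, highest in SJY 1. ALI 3 had the highest sum of 12 B cell and plasma cell markers, 1903 FPKM against 102 in ALI 1 and 208 to 1208 in the rest. Test results that rest on either library are given with and without it.

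The members differed widely in level, and FPKM allows genes to be compared per length. The mean over 15 libraries was at least 50 FPKM for 4 members (the receptors Ltbr and Tnfrsf1a and the ligands Tnfsf12 and Tnfsf13), 10 to 50 for 6, 1 to 10 for 19 and under 1 for 10. The 10 under 1 FPKM were the ones below the filter: the ligands Tnf, Lta, Cd70, Tnfsf4, Tnfsf8, Tnfsf11, Tnfsf15 and Tnfsf18 and the receptors Ngfr and Tnfrsf19. Nearest to the filter on the outside was Ngfr, at 1 FPKM or more in 4 libraries, and on the inside Cd40lg and Tnfrsf17, at that level in 10.

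**Figure D1:**
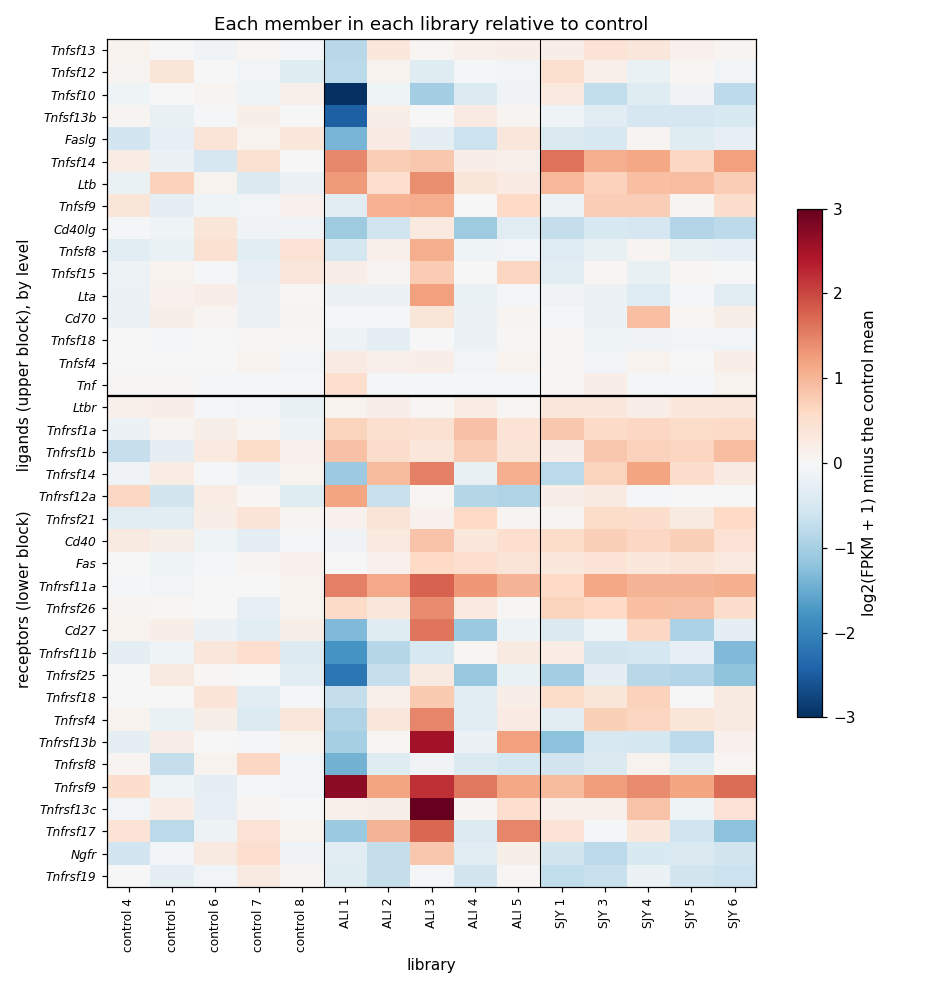
The 38 members with a value above 0, 1 line per gene (ligands above, receptors below, each by level) and 1 column per library, coloured by log2(FPKM + 1) minus the mean of the control libraries, with colours ending at 3 log2 units either way. Tnfrsf11a and Tnfrsf9 are red in all ALI and SJY libraries, Tnfsf10 and Tnfsf13b are deep blue in ALI 1, and Tnfrsf13b and Tnfrsf13c are deep red in ALI 3.

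After LPS, 4 of the 29 tested members rose and none fell: the RANK receptor Tnfrsf11a, the 4-1BB receptor Tnfrsf9, the TNF receptor Tnfrsf1a and the ligand Ltb. Calls are at an adjusted p under 0.05 from limma with Benjamini-Hochberg adjustment over all 13457 genes tested, on differences of log2(FPKM + 1), which understate the change of low genes. The same rule called 17.6% of all genes between ALI and control, 8.02% higher and 9.56% lower. With both directions pooled, 4 of 29 is near the background. By direction it was 4 of 29 higher and 0 of 29 lower, and this split was not tested. At an unadjusted p under 0.05 there were 12 members, 9 higher and 3 lower, against 35% of all genes (13.9% higher and 21.2% lower). The median log2 difference was 0.27 over the 29 members and −0.12 over all genes. Median-of-ratios scaling moved the latter to −0.01 and called 8 members, all higher, adding Tnfrsf1b, Tnfrsf26, Cd40 and Fas. Under that scaling 2755 of the 13457 genes were called, 1453 higher and 1302 lower, where the unscaled fit called 2366.

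Between SJY and control, 11 members passed, 10 higher and 1 lower, where 32.6% of all genes were called (14.6% higher and 18.1% lower). With both directions pooled, 11 of 29 is near the background. By direction, 10 of 29 higher is above the 14.6% and 1 of 29 lower is below the 18.1%, and this split was not tested. Leaving out SJY 6 brought the 11 to 7. Those higher were the same 4 with Tnfsf14, Cd40, Tnfrsf26, Tnfrsf1b, Ltbr and Fas, and the one lower was Cd40lg. This comparison shares its 5 control libraries with the preceding one, so the pair are not independent. At an unadjusted p under 0.05 there were 13 members, 11 higher and 2 lower, against 43.6% of all genes (18.3% higher and 25.3% lower). The median log2 difference was 0.30 over the members and −0.11 over all genes.

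Between SJY and ALI, none of the 29 members passed, where 0.00743% of all genes (1 gene) did. At an unadjusted p under 0.05 there were 2 members, Tnfrsf11a and Tnfrsf13b, both lower in SJY, against 11.8% of all genes (6.62% higher and 5.17% lower). Of the 29 intervals of this difference, 27 spanned 0 and 7 reached beyond 1 log2 unit in 1 direction or the other. For those 7 a change of that size in level is within the interval. The scale understates the change of low genes, so intervals of low members outside the 7 can also hold such a change in level. The half-width of the 95% interval ran from 0.204 to 1.16 log2 units with a median of 0.557.

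**Figure D2:**
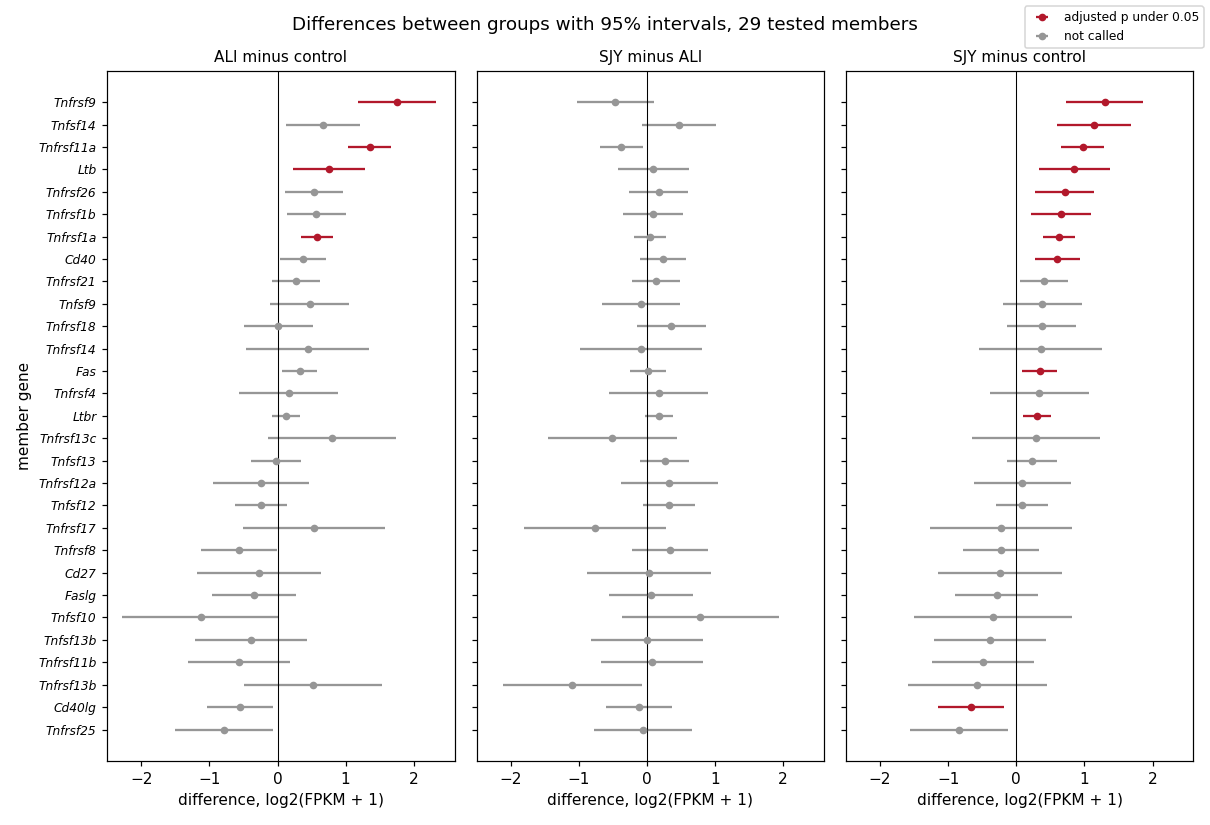
Difference in mean log2(FPKM + 1) of the 29 tested members in the 3 comparisons, with 95% intervals from limma; red points passed the test and grey ones did not. The 4 calls in ALI minus control and 10 of the 11 in SJY minus control lie to the right of 0, and the middle panel, SJY minus ALI, has none.

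The founding ligand Tnf itself was barely detected. It had 1, 1, 0, 0 and 0 counts in the control libraries, 10, 0, 0, 0 and 0 in ALI and 1, 4, 0, 0 and 2 in SJY. The 10 counts of ALI 1 (95% Poisson interval 4.80 to 18.4, counting error only) equal 0.441 FPKM, and Tnf was listed at 0 in 9 of the 15 libraries, for each of which a count of 0 allows up to 3 counts. The high library was ALI 1 alone, while 4 of the 5 ALI libraries were at 0, so a difference between the groups was not detectable at this depth.

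Lta, the secreted lymphotoxin, was similarly scarce. It had 3, 8, 9, 3 and 6 counts in the control libraries, 3, 3, 41, 3 and 5 in ALI and 4, 3, 0, 5 and 1 in SJY. ALI 3 stood above all others at 2.05 FPKM, and the remaining ALI libraries had 3 to 5 counts against 3 to 9 in control.

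Ltb, which anchors lymphotoxin to the membrane and signals through Ltbr, was more abundant than Lta or Tnf. Its level stood at 0.858, 2.46, 1.32, 0.598 and 0.897 FPKM in the control libraries, 4.20, 2.06, 4.59, 1.75 and 1.53 in ALI and 3.31, 2.47, 3.003, 3.04 and 2.56 in SJY, from 9 to 72 counts a library. All 5 SJY libraries were above all 5 controls, whereas ALI 2, ALI 4 and ALI 5 lay inside the control range. On the log2 scale the difference was 0.76 ± 0.25 (SE), adjusted p = 0.0448 for ALI and 0.85 ± 0.25 (SE), adjusted p = 0.0158 for SJY against control. The ALI call was lost on leaving out control 4, 6, 7 or 8 or ALI 1, 2 or 3, each alone (adjusted p 0.0541 to 0.112), and without both ALI 1 and ALI 3 the difference was 0.37 (adjusted p = 0.284). The SJY minus ALI difference was 0.10 (95% interval −0.43 to 0.62, adjusted p = 0.917). The RefSeq promoter of Ltb and that of Tnfsf14 are printed because both genes were called and both hold a match to the NF-kB consensus, in capitals, a factor that TNF receptors activate. Each runs 5′ to 3′ on the gene's strand from 250 bases before the start to 50 after it, on build GRCr8 (Ltb at chr20:3634005-3634304, minus strand; Tnfsf14 at chr9:2160037-2160336, minus strand).
Ltb: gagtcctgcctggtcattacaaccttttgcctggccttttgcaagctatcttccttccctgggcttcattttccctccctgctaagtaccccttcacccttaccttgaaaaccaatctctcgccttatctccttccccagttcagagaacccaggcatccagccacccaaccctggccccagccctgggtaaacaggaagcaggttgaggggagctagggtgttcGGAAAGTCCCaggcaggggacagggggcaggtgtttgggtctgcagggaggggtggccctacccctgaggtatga
Tnfsf14: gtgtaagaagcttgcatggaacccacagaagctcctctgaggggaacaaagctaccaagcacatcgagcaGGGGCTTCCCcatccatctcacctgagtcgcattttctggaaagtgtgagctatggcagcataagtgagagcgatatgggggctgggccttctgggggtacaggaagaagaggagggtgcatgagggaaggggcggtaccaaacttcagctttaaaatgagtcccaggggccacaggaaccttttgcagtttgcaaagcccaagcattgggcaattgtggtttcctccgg
The match of Ltb lies at −25 to −16 from its start and that of Tnfsf14 at −180 to −171.

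Ltbr, the lymphotoxin-beta receptor on stromal and myeloid cells, was among the most abundant members. It stood at 75.5, 77.7, 64.5, 64.0 and 57.8 FPKM in the control libraries, 72.6, 77.7, 69.0, 79.2 and 69.2 in ALI and 86.0, 83.8, 77.0, 84.8 and 85.7 in SJY. Against control the log2 difference was 0.12 ± 0.10 (SE), adjusted p = 0.384 in ALI, and 0.30 ± 0.10 (SE), adjusted p = 0.0259 in SJY. The SJY libraries, at 77.0 to 86.0 FPKM, overlapped control only through SJY 4 at 77.0 and control 5 at 77.7. The call was lost without any 1 of control 6, 7 or 8 or SJY 1, 3, 5 or 6 (adjusted p 0.05 to 0.0754). Set against ALI, SJY differed by 0.18 (95% interval −0.02 to 0.39, adjusted p = 0.481).

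Tnfsf14 (LIGHT), which binds both Ltbr and Tnfrsf14, was low and rose in SJY against control. Its level stood at 1.63, 0.984, 0.571, 2.08 and 1.25 FPKM in the control libraries, 5.06, 2.76, 2.94, 1.59 and 1.49 in ALI and 5.98, 3.76, 4.03, 2.46 and 4.22 in SJY. The 5 SJY libraries, at 2.46 to 5.98 FPKM, were all above the controls at 0.571 to 2.08, while ALI 4 and ALI 5 lay within the control range. The log2 difference from control was 1.15 ± 0.26 (SE), adjusted p = 0.0039 in SJY and 0.67 ± 0.26 (SE), adjusted p = 0.0799 in ALI; without ALI 5 the ALI difference was 0.80 (adjusted p = 0.0422). Relative to ALI, SJY differed by 0.48 (95% interval −0.07 to 1.02, adjusted p = 0.489). Its other receptor, Tnfrsf14 (HVEM), ran from 10.7 to 69.9 FPKM in ALI, 13.2 to 55.4 in SJY and 21.2 to 28.2 in control, so both LPS groups were wider than control at either end.

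Tnfrsf1a (TNFR1), the widely expressed death-domain receptor of TNF, rose in both groups given LPS. It stood at 46.9, 56.5, 60.4, 56.3 and 48.1 FPKM in the control libraries, 85.3, 74.4, 73.9, 98.4 and 70.9 in ALI and 93.7, 80.3, 82.6, 78.9 and 79.6 in SJY. The highest control, 60.4, was below the lowest ALI and SJY libraries, at 70.9 and 78.9, from 1256 to 2946 counts a library. The mean was 53.6 ± 5.86 FPKM (SD, n = 5) for control, 80.6 ± 11.4 for ALI and 83.0 ± 6.12 for SJY. Its difference on the log2 scale was 0.58 ± 0.11 (SE), adjusted p = 0.00273 in ALI and 0.63 ± 0.11 (SE), adjusted p = 0.000825 in SJY, both against control. SJY minus ALI was 0.05 (95% interval −0.18 to 0.28, adjusted p = 0.903).

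Tnfrsf1b (TNFR2), the TNF receptor of leukocytes and endothelium, lacks a death domain. It stood at 14.6, 19.6, 29.5, 35.3 and 26.4 FPKM in the control libraries, 45.1, 34.97, 30.4, 40.4 and 31.7 in ALI and 27.8, 42.8, 39.4, 38.2 and 46.9 in SJY. Both LPS groups overlapped control, whose highest library was control 7 at 35.3. The log2 difference was 0.57 ± 0.21 (SE), adjusted p = 0.0652 in ALI, which passed only when control 7 was left out among the 10 libraries left out in turn (0.70, adjusted p = 0.0361). In SJY it was 0.66 ± 0.21 (SE), adjusted p = 0.0232, and the call was lost without control 5, SJY 3 or SJY 6 (adjusted p 0.0536 to 0.0589). The SJY minus ALI difference was 0.09 (95% interval −0.35 to 0.52, adjusted p = 0.909).

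Tnfrsf11a (RANK), known for driving osteoclast formation and found on dendritic cells and epithelium, had the smallest adjusted p of the members in both comparisons with control. It stood at 4.54, 4.43, 4.80, 4.85 and 5.23 FPKM in the control libraries, 15.5, 11.7, 18.6, 13.3 and 10.8 in ALI and 7.74, 11.9, 10.8, 10.7 and 11.1 in SJY. Every ALI and SJY library was above every control, and SJY 1 was the lowest of the SJY libraries. The mean was 4.77 ± 0.311 FPKM (SD, n = 5) for control, 13.98 ± 3.14 for ALI and 10.4 ± 1.58 for SJY. The log2 difference from control was 1.35 ± 0.15 (SE), adjusted p = 2.98e-05 in ALI and 0.98 ± 0.15 (SE), adjusted p = 0.000263 in SJY, and these calls held under every alternative run (19 and 18). Set against ALI, SJY differed by −0.38 (95% interval −0.69 to −0.06, adjusted p = 0.353), which did not pass after adjustment. Its ligand Tnfsf11 (RANKL) was listed at 0 in all 15 libraries, which may be a failed estimate. Tnfrsf11b, the soluble decoy osteoprotegerin, ranged over 6.83 to 13.6 FPKM in controls, 2.03 to 11.5 in ALI and 3.15 to 11.1 in SJY.

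Tnfrsf9 (4-1BB), an activation-induced costimulatory receptor of T cells and other leukocytes, had the largest log2 difference of the called members in both comparisons with control. It stood at 1.24, 0.414, 0.288, 0.507 and 0.478 FPKM in the control libraries, 8.91, 2.54, 6.10, 3.63 and 2.46 in ALI and 1.98, 2.69, 3.15, 2.54 and 3.99 in SJY, from 6 to 205 counts a library. No ALI or SJY library was as low as the highest control, control 4 at 1.24 FPKM. On the log2 scale the difference was 1.76 ± 0.27 (SE), adjusted p = 0.00052 in ALI and 1.29 ± 0.27 (SE), adjusted p = 0.00245 in SJY, and SJY minus ALI was −0.46 (95% interval −1.03 to 0.11, adjusted p = 0.528). Its ligand Tnfsf9 ran from 0.906 to 1.92 FPKM in controls, 0.798 to 3.83 in ALI and 1.06 to 2.80 in SJY.

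**Figure D3:**
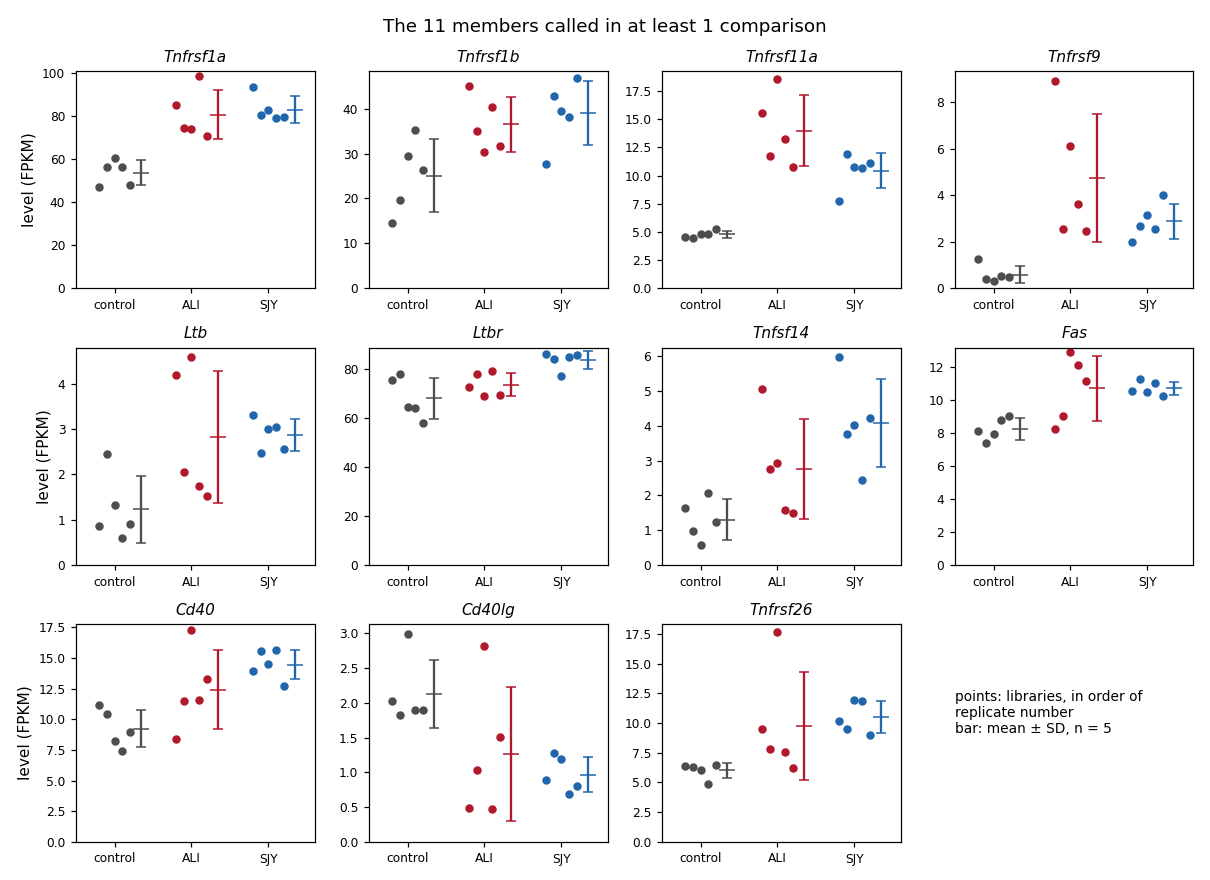
Level in FPKM of the 11 members called in at least 1 comparison; points are libraries in order of number, and bars give the mean ± SD of 5. For Tnfrsf1a, Tnfrsf11a and Tnfrsf9 no ALI or SJY point lies as low as the highest control point; Cd40lg is the one member called lower in SJY.

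Of the 29 members, 3 had all ALI libraries above all controls (Tnfrsf11a, Tnfrsf9 and Tnfrsf1a) and none the reverse, against 12.9% of all genes (6.17% higher and 6.73% lower). Between SJY and control the number was 8 higher and 1 lower, against 27.7% of all genes (11.8% higher and 15.9% lower). Between SJY and ALI it was 0, against 3.23% (2.24% higher and 0.988% lower). As each library is bulk tissue, fewer cells of a type and less RNA per cell cannot be told apart in any of these levels. Of the 12 neutrophil markers, none of them at 0 in any library, 11 rose and 1 fell in both comparisons with control, and all 10 alveolar type I markers fell in ALI and 8 in SJY. Of 11 tested monocyte and macrophage markers 7 rose in ALI and 6 in SJY, again against control, and the part of these cell types in the member differences was not tested.

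Cd40, the receptor through which T cells license B cells, dendritic cells and macrophages, rose in SJY against control. It stood at 11.1, 10.4, 8.24, 7.44 and 8.97 FPKM in the control libraries, 8.42, 11.5, 17.2, 11.6 and 13.3 in ALI and 13.9, 15.5, 14.5, 15.6 and 12.7 in SJY. All SJY libraries were above all controls, and ALI 1 at 8.42 lay within the control range. Its difference on the log2 scale was 0.60 ± 0.16 (SE), adjusted p = 0.00964 in SJY and 0.37 ± 0.16 (SE), adjusted p = 0.113 in ALI, where it passed without ALI 1 (0.49, adjusted p = 0.0242). Relative to ALI, SJY differed by 0.24 (95% interval −0.10 to 0.57, adjusted p = 0.604).

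Cd40lg, the ligand of Cd40 on activated helper T cells, was the 1 member called lower in the 3-group fit, in SJY against control. A fit of these 2 groups called 4 of the 29 members lower, where it called 3487 of all 13457 genes lower. Cd40lg stood at 2.03, 1.83, 2.99, 1.89 and 1.90 FPKM in the control libraries, 0.489, 1.03, 2.81, 0.47 and 1.504 in ALI and 0.893, 1.27, 1.19, 0.684 and 0.804 in SJY. Every SJY library was below every control, and in ALI only ALI 3, at 2.81, reached the control range. The log2 difference was −0.67 ± 0.23 (SE), adjusted p = 0.035 in SJY, a call lost without any 1 of control 6, 7 or 8 or SJY 1, 5 or 6 (adjusted p 0.0550 to 0.0907). In ALI it was −0.55 ± 0.23 (SE), adjusted p = 0.0999, and without ALI 3 it was −0.76 (adjusted p = 0.0151). SJY minus ALI was −0.11 (95% interval −0.60 to 0.37, adjusted p = 0.892). The 12 T cell markers, none at 0 in any library, summed to 152 to 209 FPKM in controls, 78.8 to 268 in ALI and 105 to 193 in SJY. Of the 11 tested, none passed in ALI and 1 was higher in SJY against control. Their median log2 difference from control was −0.36 in ALI and −0.51 in SJY, beside −0.12 and −0.11 over all genes. Their part in the level of Cd40lg was not tested.

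The other costimulatory members did not pass in any comparison of the 3-group fit. Tnfrsf4 (OX40) and Tnfrsf18 (GITR), receptors of effector and regulatory T cells, ran from 1.32 to 11.1 and from 1.89 to 7.15 FPKM over the 15 libraries. With array weights Tnfrsf4 was higher in SJY than in control (0.53, limma adjusted p = 0.0453). Tnfrsf8 (CD30) ran from 0.721 to 6.14. Cd27, carried by T cells, memory B cells and plasma cells, stood at 6.75 to 10.04 FPKM in controls, 2.83 to 28.2 in ALI and 3.97 to 13.7 in SJY, with both extremes in ALI 1 and ALI 3. Their ligands were mostly below the filter. Cd70, which binds Cd27, had 0 to 11 counts a library, Tnfsf4, which binds Tnfrsf4, had 0 to 6, and Tnfsf18, which binds Tnfrsf18, was at most 0.238 FPKM. Tnfsf8, which binds Tnfrsf8, reached 1 FPKM in 3 libraries.

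**Figure D4:**
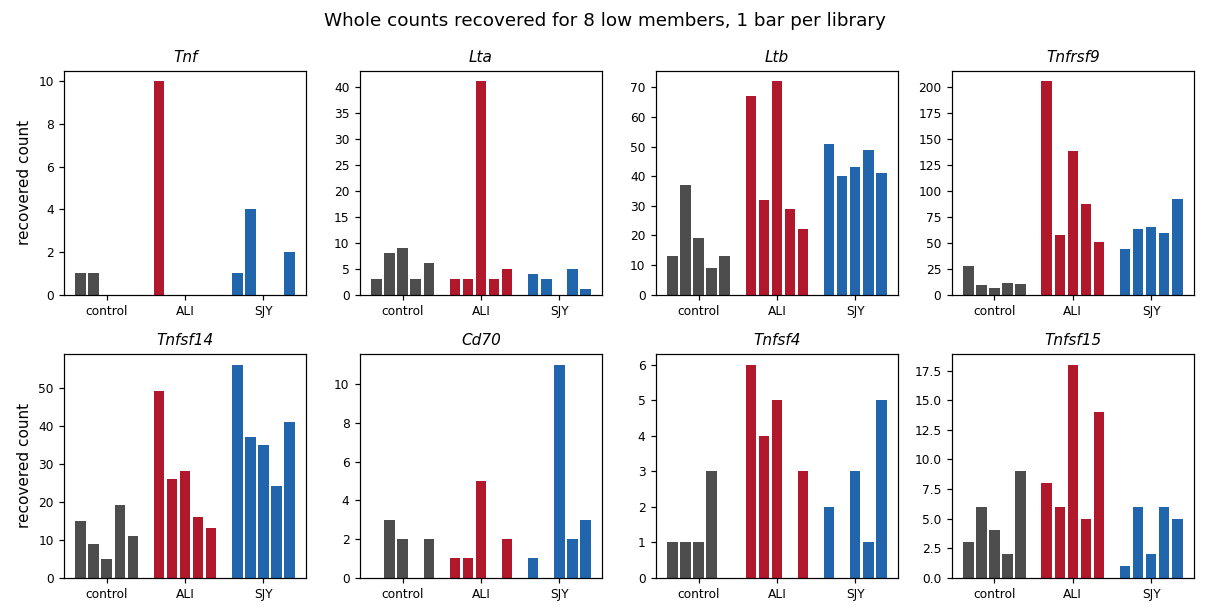
Recovered whole counts of 8 low members, 1 bar per library in the order control, ALI and SJY, with each panel on its own axis from 0. Tnf is highest in ALI 1 (10 counts) and Lta in ALI 3 (41 counts), while Tnfrsf9 has 51 to 205 counts in ALI and 6 to 27 in control.

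Beside Tnfrsf1a, 1 further death-domain receptor, Fas, was called, in SJY against control only. Fas, the death receptor that engages caspase 8 through Fadd, stood at 8.13, 7.43, 7.93, 8.80 and 9.07 FPKM in the control libraries, 8.27, 9.06, 12.9, 12.2 and 11.2 in ALI and 10.5, 11.3, 10.5, 11.02 and 10.3 in SJY. All SJY libraries were above all controls, at a narrow 10.3 to 11.3 FPKM. On the log2 scale the difference was 0.34 ± 0.12 (SE), adjusted p = 0.0443 in SJY, and leaving out any 1 of the 10 libraries ended the call (adjusted p 0.0548 to 0.0936). In ALI it was 0.32 ± 0.12 (SE), adjusted p = 0.0784, and without ALI 1 it was 0.40 (adjusted p = 0.0195). The SJY minus ALI difference was 0.02 (95% interval −0.24 to 0.28, adjusted p = 0.978). The RefSeq promoter of Fas (chr1:241211905-241212204, plus strand, GRCr8) is shown as the third called member with an NF-kB consensus match, in capitals, at −242 to −233 from its start.
Fas: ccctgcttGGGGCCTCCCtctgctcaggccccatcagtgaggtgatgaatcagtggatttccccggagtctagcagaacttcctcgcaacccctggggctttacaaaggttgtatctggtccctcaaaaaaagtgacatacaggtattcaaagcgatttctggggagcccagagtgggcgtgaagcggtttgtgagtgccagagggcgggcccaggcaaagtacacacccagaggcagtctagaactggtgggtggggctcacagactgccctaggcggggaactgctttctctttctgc
The consensus was found on either strand in 7.51% of the 33469 promoters of the RefSeq table. Among the members it was found in 3 of the 8 called ones with an entry there, in 1 of the 13 tested but not called (Tnfrsf8) and in the untested Lta and Cd70; a match is a description of letters, not a site.

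Faslg, the Fas ligand of cytotoxic cells, stood at 1.83, 2.52, 4.51, 3.50 and 4.23 FPKM in the control libraries, 0.596, 3.997, 2.42, 1.67 and 4.33 in ALI and 2.09, 1.98, 3.42, 2.27 and 2.56 in SJY. ALI 1 was the lowest library and no group was separate from another. Faslg did not pass in any comparison of the 3-group fit. With array weights it was lower in SJY than in control (−0.44, limma adjusted p = 0.0484).

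Tnfrsf26, a rodent receptor of the family, stood at 6.42, 6.29, 6.03, 4.91 and 6.47 FPKM in the control libraries, 9.503, 7.82, 17.7, 7.60 and 6.20 in ALI and 10.2, 9.52, 11.98, 11.8 and 9.03 in SJY. SJY lay wholly above control, and ALI 5 at 6.20 fell within the control range. Its difference on the log2 scale was 0.71 ± 0.20 (SE), adjusted p = 0.0151 in SJY and 0.53 ± 0.20 (SE), adjusted p = 0.0777 in ALI, the second passing without ALI 5 (0.66, adjusted p = 0.0313). Set against ALI, SJY differed by 0.18 (95% interval −0.26 to 0.61, adjusted p = 0.787). Tnfrsf21 (DR6) and Tnfrsf25 (DR3), which carry a death domain, did not pass in any comparison of the 3-group fit, but each passed under some alternatives. Tnfrsf21 ran from 7.71 to 13.3 FPKM in controls, 10.7 to 15.8 in ALI and 10.6 to 15.7 in SJY, and its difference of SJY from control (0.40, adjusted p = 0.0697) passed without control 7 (0.50, adjusted p = 0.0393) or SJY 1 (0.49, adjusted p = 0.0435), and after median-of-ratios scaling (0.50, adjusted p = 0.0216), with array weights, the replicate block or voom. Tnfrsf25 ran from 7.90 to 12.5 in control, 1.46 to 12.5 in ALI and 3.83 to 8.001 in SJY, and its difference of ALI from control (−0.78, adjusted p = 0.115) passed without ALI 3 (−1.05, adjusted p = 0.0353). Its difference of SJY from control (−0.85, adjusted p = 0.0658) passed in a fit of the 2 groups (adjusted p = 0.00192) and with array weights (−0.74, adjusted p = 0.00441). Tnfsf15, the ligand of Tnfrsf25, was below the filter at 0.0732 to 1.30 FPKM.

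Tnfsf10 (TRAIL), a death-inducing ligand responsive to interferon, had its lowest level in ALI 1. It stood at 37.3, 41.3, 43.6, 37.0 and 45.4 FPKM in the control libraries, 1.68, 37.0, 19.5, 30.5 and 37.8 in ALI and 50.1, 24.0, 31.4, 37.6 and 23.3 in SJY. ALI 1, at 1.68 FPKM and 87 counts, was far below the other ALI libraries at 19.5 to 37.8. The log2 difference was −1.13 ± 0.54 (SE), adjusted p = 0.152 in ALI and −0.42 (adjusted p = 0.193) without ALI 1. Relative to ALI, SJY differed by 0.78 (95% interval −0.37 to 1.94, adjusted p = 0.617), and without both ALI 1 and ALI 3 it was −0.13 (adjusted p = 0.749), so its sign rests on those libraries.

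Tnfsf12 (TWEAK) and its receptor Tnfrsf12a (Fn14), known for tissue repair, did not pass in any comparison. Tnfsf12 stood at 62.4, 75.9, 58.4, 55.4 and 45.7 FPKM in the control libraries, 33.2, 62.8, 45.4, 56.7 and 55.1 in ALI and 82.9, 65.3, 51.1, 60.8 and 55.1 in SJY. Tnfrsf12a stood at 19.8, 8.26, 14.9, 13.1 and 9.52 FPKM in the control libraries, 29.8, 7.45, 13.1, 6.45 and 6.18 in ALI and 14.5, 15.3, 12.2, 12.7 and 12.6 in SJY. ALI 1, at 29.8 FPKM, was the highest library of Tnfrsf12a, and ALI 2, 4 and 5 lay below every control. Its log2 difference in ALI was −0.24 ± 0.33 (SE), adjusted p = 0.625, and without both ALI 1 and ALI 3 it was −0.82 (adjusted p = 0.02).

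Among the B cell survival genes, Tnfsf13b (BAFF) depended on ALI 1. It stood at 9.94, 7.88, 9.03, 10.6 and 9.36 FPKM in the control libraries, 0.896, 10.6, 9.26, 11.2 and 10.001 in ALI and 8.38, 7.18, 6.30, 6.32 and 6.53 in SJY. ALI 1, at 0.896 FPKM and 26 counts, was far below the other 4 ALI libraries, which lay at 9.26 to 11.2, above every SJY library. SJY minus control was −0.39 (95% interval −1.20 to 0.43, limma adjusted p = 0.467) in the 3-group fit. That fit uses 1 spread for all 3 groups, so ALI 1 enters this interval though it is in neither group. SJY overlapped control only through SJY 1 at 8.38 FPKM and control 5 at 7.88. With all libraries SJY minus ALI was 0.00 (95% interval −0.81 to 0.82, adjusted p = 0.998). Without ALI 1 it was −0.51 (adjusted p = 0.0438), the 1 member among the 181 genes then called, and without both ALI 1 and ALI 3 it was −0.55 (adjusted p = 0.0511). Tnfsf13 (APRIL) showed the same low library, 31.4 FPKM in ALI 1 against 59.7 to 71.5 in the rest of ALI, with 53.0 to 61.5 in control and 60.9 to 76.4 in SJY.

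The 3 receptors of BAFF and APRIL were each highest in ALI 3. Tnfrsf13c (BAFF receptor), carried by B cells, stood at 17.1 FPKM there with the rest of ALI at 1.27 to 2.04, control at 0.802 to 1.49 and SJY at 0.972 to 2.85. Tnfrsf13b (TACI) stood at 26.2 FPKM in ALI 3 and 10.1 in ALI 5, with the rest of ALI at 1.39 to 3.87, control at 2.92 to 4.52 and SJY at 1.03 to 4.25. Tnfrsf17 (BCMA), the receptor of plasma cells, stood at 3.71, 6.66 and 5.39 FPKM in ALI 2, 3 and 5, above every control (0.326 to 2.12) and SJY library (0 to 2.07), and at 0.0770 and 0.739 in ALI 1 and 4. For Tnfrsf13b, SJY minus ALI was −1.09 (95% interval −2.11 to −0.08, adjusted p = 0.394), and −0.60 (adjusted p = 0.512) without ALI 3. Of the 12 B cell and plasma cell markers, none was at 0 in any library, none passed in ALI and 1 was higher in SJY against control; their part in the receptor levels was not tested.

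**Figure D5:**
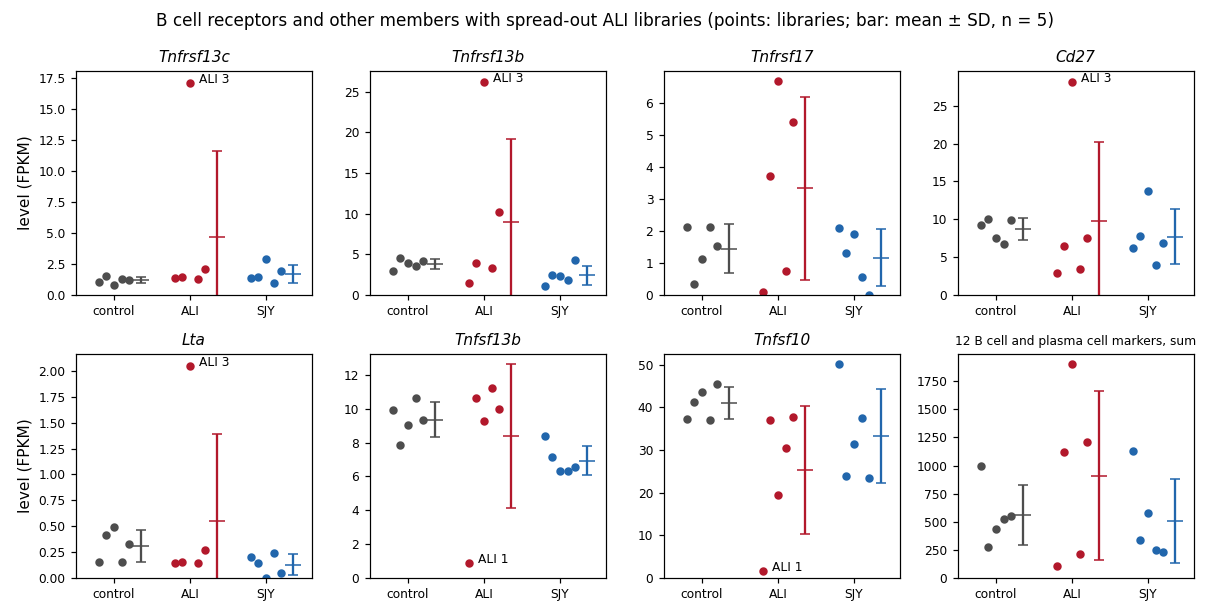
Level in FPKM by library of 7 members and, in the last panel, of the sum of 12 B cell and plasma cell markers; points are libraries and bars the mean ± SD of 5, cut off at 0. ALI 1 is low for Tnfsf13b (0.896) and Tnfsf10 (1.68), and ALI 3 is high for Tnfrsf13c (17.1), Tnfrsf13b (26.2) and Cd27 (28.2).

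In the rest of the family, Ngfr, the low-affinity neurotrophin receptor, and Tnfrsf19 (TROY) remained below the filter. Ngfr ran from 0.289 to 1.72 FPKM in controls, 0.164 to 2.37 in ALI and 0.112 to 0.430 in SJY. Tnfrsf19 ran from 0.479 to 1.17 FPKM in controls, 0.101 to 0.853 in ALI and 0.0814 to 0.592 in SJY, where only SJY 4 reached the control range. In a fit without the filter, Tnfrsf19 was lower in SJY than in control (−0.56 ± 0.15 (SE), limma adjusted p = 0.0157); no other member below the filter passed in any comparison of that fit.

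Downstream of the receptors, several NF-kB genes were higher than in control. Each gene named below with a log2 difference kept its direction under every alternative run. Of 39 tested genes of TNF receptor signalling, 7 rose and 1 fell in ALI (list median 0.06 on the log2 scale) and 10 rose and 5 fell in SJY (median 0.05), beside medians of −0.12 and −0.11 over all genes. For these lists the shares of all genes called are 8.02% higher and 9.56% lower in ALI, and 14.6% higher and 18.1% lower in SJY. With the replicate number as a block, 3 of the 39 rose and 0 fell in ALI, and likewise in SJY. With array weights 10 rose and 5 fell in ALI, and 14 rose and 10 fell in SJY. Over all 13457 genes the block called 244 higher and 69 lower in ALI, and 743 higher and 399 lower in SJY. Array weights called 1843 higher and 2116 lower in ALI, and 3344 higher and 4310 lower in SJY. Leaving out control 7 or SJY 6 alone brought the number that rose in SJY to 6, and control 7 or 8 or SJY 1 alone the number that fell to 3; in ALI the number that fell was 3 without control 4, 2 without ALI 1 and 0 without any 1 of the other 4 controls. The largest differences in ALI were Birc3 (1.59), a ubiquitin ligase that blocks cell death, and the alternative NF-kB subunit Relb (1.40), followed by Tnip3 (1.15) and the Tnfaip3 partner Tnip1 (1.02). Against control in SJY they were Birc3 (1.76), Relb (1.39), the caspase inhibitor Xiap (−1.33) and the NF-kB subunit Nfkb2 (1.26).

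Of 16 tested genes of death receptor execution, 3 rose and none fell in ALI (list median 0.21) and 7 rose and 1 fell in SJY (0.26), the latter number being 2 without control 4 or SJY 6. Bid, which links caspase 8 to mitochondria, rose by 1.28 log2 units in ALI and 1.44 in SJY. Ripk3, the necroptosis kinase, rose by 1.17 in ALI and 1.51 in SJY. Bag4, which restrains TNFR1, fell by 0.91 in SJY against control.

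Of 18 tested genes that control TNF production and shedding, 6 rose and 2 fell in ALI (list median 0.20), and 7 rose and 2 fell in SJY (0.19). The number that fell in ALI was 1 without any 1 of the 5 controls or ALI 1, 3 or 5. Timp3, the inhibitor of the TNF-releasing protease Adam17, had a log2 difference of −1.96 in ALI and −1.77 in SJY. Zc3h12a, an RNase that degrades cytokine transcripts, rose by 1.68 in ALI and 1.40 in SJY, and Litaf, named for its part in LPS-induced TNF, by 1.32 and 1.57. Of 9 tested targets of the LTBR and BAFF branches, 4 rose in ALI and 5 in SJY, with none lower (list medians 1.05 and 0.96), led by the lymphoid chemokines Cxcl13 (5.63 in ALI and 4.79 in SJY) and Ccl19 (3.33 and 2.83). Outside the symbol rule lie the family genes Eda, Edar, Eda2r and Relt and the adaptor Edaradd. Of these 5 genes 2 were tested, and Edaradd alone passed (−0.69 in SJY against control). Between SJY and ALI no gene of these 5 lists passed in the 3-group fit. Among the alternatives, array weights called 1 gene of death receptor execution higher. Of TNF production and shedding they called 2 higher and 1 lower, and without ALI 1 the fit called 1 higher. Over all genes array weights called 297 higher and 181 lower, and the fit without ALI 1 called 119 higher and 62 lower.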

How the data were processed

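Lung RNA libraries were made from 1 µg of total RNA, extracted with TRIzol, with the NEBNext Ultra RNA kit, per the labels' protocols. Reads were handled with cutadapt, HISAT2 and StringTie on the rat build Rnor_6.0, per the submitters' processing notes, which give no versions. Per the file headers, the authors deposited FPKM for 22250 genes, with Ensembl identifiers, in 15 libraries; no scaling between libraries and no strand setting is given in the sources used here, so reads of overlapping genes cannot be told apart.

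Genes of at least 1 FPKM in 5 of 15 libraries (13457) were tested with limma 3.58.1 in R 4.3.3 on log2(FPKM + 1), in 1 fit of the 3 groups with trend and robust settings, two-sided, with Benjamini-Hochberg adjustment over all genes tested. On simulated data of 13457 genes, with 100 changed at each size, changes of 1 log2 unit were recovered for 69% between ALI and control. The share was 79% between SJY and ALI and 66% between SJY and control, and for 2 log2 units 95%, 96% and 93%. The simulation drew independent normal noise with the same spread per gene in all groups, so the comparisons differ only by the draw. It held no deviations shared by the genes of a library, such as those of ALI 1. These shares are therefore a check of the fit and not the power of each comparison in these data. Whole counts were recovered from the deposited FPKM by finding each library's relative depth (0.945 to 1.1 of control 4) from the commonest ratio of low values (under 0.2 FPKM) between libraries; 18543 of 18545 genes with a value above 0, and 38 of 38 such members, came out whole within 0.02 of a count. These counts are known up to a common factor, may be reads or fragments, and intervals and floors (3 counts for a 0) cover counting error only.

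All members are accounted for; those called in any comparison, and Tnf, Lta, Ltb, Tnfrsf1a, Tnfrsf1b, Ltbr, Fas, Faslg, Cd40, Cd40lg, Tnfsf10, Tnfsf13b, Tnfsf12 and Tnfrsf12a, are described with every library's value, and of each pathway list up to 4 called genes with the largest difference. The members, the 5 pathway lists, the marker lists and the alternatives were chosen with earlier results of these data known. Of 219 list entries, 7 matched no symbol. Alternatives were another scaling, a pseudocount of 0.1, no filter, fits of 2 groups, other limma settings, a replicate block and each library left out; leaving out both ALI 1 and ALI 3, and voom on the recovered counts, were added after seeing the data. Promoters are from RefSeq (GRCr8), which held 29 of the 39 members, and were matched by symbol. Some list genes are not reported here. No coordinates were converted between builds.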

Additional observations from a re-analysis of the deposited data

Results flagged for a closer look

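In 10 of 87 sets of 5 libraries (29 tested members in 3 groups) 1 library lay far from the other 4 by Dixon's test at the 95% level, on log2(FPKM + 1), where chance alone gives about 1 in 20. In ALI 1, Tnfsf10 (1.68 FPKM against 19.5 to 37.8), Tnfsf13b (0.896 against 9.26 to 11.2) and Tnfsf13 (31.4 against 59.7 to 71.5) were low. In ALI 3, Tnfrsf13c was high (17.1 against 1.27 to 2.04).

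In SJY, Tnfrsf1a was high in SJY 1 (93.7 FPKM against 78.9 to 82.6), Tnfrsf11a was low in SJY 1 (7.74 against 10.7 to 11.9), and Ltbr was low in SJY 4 (77.0 against 83.8 to 86.0). In control, Cd40lg was high in control 6 (2.99 FPKM against 1.83 to 2.03), Tnfrsf9 was high in control 4 (1.24 against 0.288 to 0.507), and Tnfrsf26 was low in control 7 (4.91 against 6.03 to 6.47).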

How the results depend on the processing

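Against the 4 members called between ALI and control, 8 were called after median-of-ratios scaling, which moved the median log2 difference of all genes from −0.12 to −0.01, and 9 with array weights; leaving out 1 library gave 3 to 6. Between SJY and ALI, where 0 were called, leaving out 1 library gave 0 to 1. Against the 11 called between SJY and control (10 higher and 1 lower), array weights gave 20, 15 higher and 5 lower. A fit of the 2 groups gave 10 higher and 4 lower, and leaving out 1 library gave 7 to 10 in all. Over all genes, ALI against control gave 2366 calls, 2755 after median-of-ratios scaling and 1332 in a fit of 2 groups. It gave 3959 with array weights and 1556 without control 7. SJY against ALI gave 1 call, 478 with array weights and 181 without ALI 1. SJY against control gave 4390 calls and 5853 in a fit of the 2 groups (2366 higher and 3487 lower). With array weights it gave 7654 (3344 higher and 4310 lower). Among the 29 members the direction held under every alternative for 24 between ALI and control, 15 between SJY and ALI and 24 between SJY and control.

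With the replicate number as a block, 1 member was called in ALI against control (Tnfrsf11a), 0 in SJY against ALI and 4 in SJY against control, and 313, 1 and 1142 genes in all. The block turned the difference of Ltbr in ALI against control (−0.019), of Fas (−0.030) and Tnfrsf1b (−0.032) in SJY against ALI, and of Tnfrsf12a in SJY against control (−0.32). Of the pathway genes named with a value, the block ended the calls of Tnip1, Tnip3, Ccl19, Cxcl13, Timp3 and Ripk3 in ALI and of Xiap, Bag4, Timp3, Ccl19 and Edaradd in SJY against control. In ALI it left 1 gene of death receptor execution higher, 2 of TNF production and shedding and 1 of the LTBR and BAFF targets. In SJY against control it left 4, 5 and 2 higher, with 0 lower in either comparison. Deviations of same-numbered libraries from their group means had correlations of −0.39 to 0.30. The same-numbered library was the closest of the other group for SJY 1 (0.14) and SJY 5 (0.30) with ALI and for SJY 5 with control (0.20). It was not the closest for the other pairs. These few correlations cannot settle whether the numbers pair the libraries.

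In all, the direction reversed under some alternative for 5, 14 and 5 members in the 3 comparisons. Further reversals of the members given with tests were as follows, and the cause was not tested. Between ALI and control Tnfsf13b (−0.39) became 0.046 with array weights, 0.17 without both ALI 1 and ALI 3, and −0.55 to 0.12 with 1 library left out. Between SJY and ALI, Fas (0.02) became −0.0091 after median-of-ratios scaling, −0.012 with array weights and -7.95e-06 without both; Tnfsf10 (0.78) became −0.077 with array weights and −0.13 without both; Tnfsf13b (0.00) became −0.51 with array weights and −0.55 without both. With 1 library left out, SJY minus ALI ranged from −0.062 to 0.085 for Fas, −0.51 to 0.16 for Tnfsf13b, −0.25 to 0.10 for Cd40lg and −0.033 to 0.25 for Ltb, and SJY minus control from −0.048 to 0.24 for Tnfrsf12a. Depth limits Tnf, Cd70 and Tnfsf4, which had at most 10, 11 and 6 counts in any library.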

Other observations

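Several members are neighbours in the RefSeq gene order, with no other protein-coding gene between them, and some of these differed in level while others were close. On chromosome 20, Lta, Tnf and Ltb follow one another, and over the 15 libraries Tnf had 0 to 10 recovered counts, Lta 0 to 41 and Ltb 9 to 72. On chromosome 9, Cd70 (0 to 11 counts) adjoins Tnfsf14 (5 to 56 counts). On chromosome 10, Tnfsf13 adjoins Tnfsf12, at 31.4 to 76.4 and 33.2 to 82.9 FPKM. On chromosome 13, Tnfsf4, Tnfsf18 and Faslg follow one another, and Faslg alone of these passed the filter. On chromosome 5, Tnfrsf1b adjoins Tnfrsf8, and Tnfrsf1b stood at 14.6 to 46.9 FPKM against 0.721 to 6.14 for Tnfrsf8. On the same chromosome, Tnfrsf4 and Tnfrsf18 were close in mean over the 15 libraries (4.26 and 4.38 FPKM), and Tnfsf15 and Tnfsf8 were both low (0.466 and 0.785 FPKM).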
